A study of Homo sapiens with 16 samples.

Results

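The KLF5-only sites are 931 genomic regions at which KLF5, and none of 4 other profiled proteins, had a chromatin immunoprecipitation sequencing (ChIP-seq) peak in LoVo cells, a human colon adenocarcinoma line, stopped early in S phase. They were chosen from the 5928 peaks of the S-phase KLF5 list as those sharing not a single base with a peak of the S-phase HNF4A, MYC, RAD21 or CTCF lists, which left 15.7% of the list (95% interval 14.8 to 16.7%). The other 4997 S-phase KLF5 peaks overlapped at least 1 of those lists and are called shared KLF5 peaks here. The question followed below is what each M-phase list held at the sites where KLF5 had stood alone in S phase.

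KLF5 is a zinc-finger transcription factor of the Krüppel-like family that binds GC-rich and CACCC-type DNA elements and is known for driving proliferation of epithelial cells in the intestinal crypt. HNF4A is a nuclear receptor that acts in gut and liver epithelium, MYC is a basic helix-loop-helix factor of growth and proliferation genes, CTCF is the zinc-finger protein that marks insulators and loop anchors, and RAD21 belongs to cohesin, the complex that keeps sister chromatids joined until they separate and that forms chromatin loops. During mitosis chromosomes condense, and many transcription factors are known to be partly or wholly displaced from them.

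M-phase LoVo cells had been kept for 12 h in 2 mM thymidine and then for 8 h in medium with 200 ng/ml nocodazole, a microtubule poison that stops cells in mitosis. S-phase LoVo cells had received a double thymidine block, in which 12 h in 2 mM thymidine, 8 h without it and another 12 h with it stop cells at the start of DNA replication. In each phase KLF5, HNF4A, MYC, RAD21, CTCF and histone H3 were each immunoprecipitated once, with 5 µg of antibody, beside rabbit and goat IgG controls. With 1 library per target and phase, no test between phases across samples exists, no p-value is given, and all intervals cover counting error over peaks only.

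Some facts about the libraries bear on everything that follows. The 12 lists hold 146596 peaks, and the ChIP libraries behind them held between 7362169 and 16813394 filtered tags. KLF5 was the only one of the 6 targets with a shallower library in M phase, at 7362169 tags in M phase and 10345059 tags in S phase, a ratio of 0.712, while the ratio was 1.10 to 2.19 for the other 5 targets. The rabbit IgG control of all targets but CTCF was shallower in M phase too, at 6875106 tags in M phase and 10753369 in S phase, and the goat IgG control of CTCF held 4222390 tags in M phase and 3658103 in S phase. The part of these depth gaps in the M-phase scores, fold enrichments and FDRs, and in the M-phase KLF5 values, was not tested. The labels attach a peak number of 2118 to rabbit IgG of M phase and none to KLF5 of M phase, whose list has just as many peaks, so that an exchange of these labels cannot be told apart from a slip in the table. No value in the lists checks which protein an antibody bound. The series description speaks of an siRNA against RAD21, a treatment that no sample label carries and that was not assumed. The S-phase CTCF and goat IgG tags came, per the file headers, from alignments named differently from those of the other S-phase libraries.

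In S phase KLF5 was most often found with MYC. Of the 5928 KLF5 peaks, 3912 (66.0%) overlapped a MYC peak, 3130 (52.8%) an HNF4A peak, 1621 (27.3%) a RAD21 peak and 1503 (25.4%) a CTCF peak. Peaks with 1, 2, 3 and 4 of these proteins numbered 1665, 1910, 1007 and 415, so that a KLF5 peak with none of them was less frequent than one with 1, 2 or 3.

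KLF5-only sites were weaker and narrower than shared KLF5 peaks. These S-phase values come from the libraries that chose the sites and are given as a description, with no test. The MACS score, which is -10 times the log10 of the peak caller's p-value and starts at a cutoff of 50, had a median of 63.28 at KLF5-only sites, with a range of 50 to 648.57, and of 83.18 at shared KLF5 peaks. The median number of tags in a peak was 21 at KLF5-only sites and 29 at shared KLF5 peaks. The median width was 1101 bp at KLF5-only sites and 1374 bp at shared KLF5 peaks. Fold enrichment over the local background differed little, with medians of 8.04 at KLF5-only sites and 8.36 at shared KLF5 peaks.

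The distributions overlapped throughout, but few of the strongest KLF5 peaks stood alone. In 10 equal classes of the list by score, the weakest 3 held 474 KLF5-only sites (50.9%) and 1305 shared KLF5 peaks (26.1%). The strongest class held 27 KLF5-only sites (2.90%) and 566 shared KLF5 peaks (11.3%). A score of at least 100 was reached by 136 KLF5-only sites (14.6%) and by 1935 shared KLF5 peaks (38.7%). The summit lay at a median of 50.1% of the peak's width at KLF5-only sites and of 50.6% at shared KLF5 peaks, near the middle in both.

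**Figure D1:**
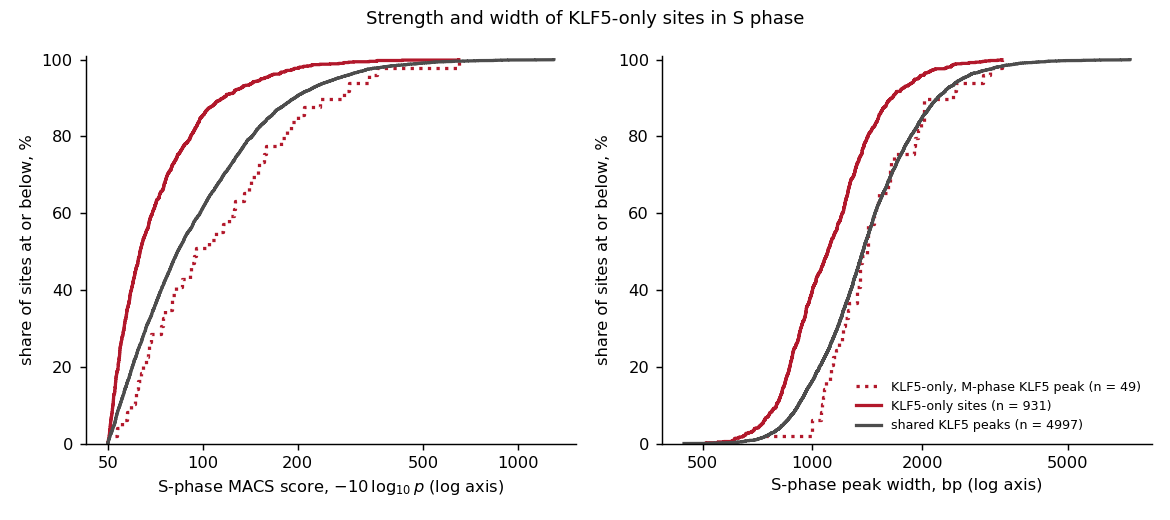
Cumulative share of peaks (%) by S-phase MACS score (left, log axis) and by S-phase peak width in bp (right, log axis). The solid red line of the 931 KLF5-only sites lies left of the grey line of the 4997 shared KLF5 peaks (median scores 63.28 and 83.18), and the dotted red line shows the 49 KLF5-only sites that had an M-phase KLF5 peak (median score 95.4).

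Standing alone at the level of a peak did not mean standing far from other proteins. From a KLF5-only site to the nearest S-phase peak of any of the 4 other proteins lay a median of 7525 bp, with a range of 14 to 325947 bp, a distance selected on by the rule. Another protein's peak lay within 1000 bp of 140 sites (15.0%), within 5000 bp of 360 sites (38.7%) and within 50000 bp of 874 sites (93.9%). CTCF was the nearest of the 4 at 423 sites, HNF4A at 219, MYC at 189 and RAD21 at 100. The median distances were 16186 bp to CTCF, 18602 bp to RAD21, 29912 bp to HNF4A and 32159 bp to MYC. This is also the order of the lengths of the S-phase lists, with 28474 CTCF, 27122 RAD21, 15437 HNF4A and 11941 MYC peaks. Close to the sites the order was another one: within 1000 bp, MYC, with the shortest list, was the most frequent neighbour, at 77 sites, ahead of CTCF at 56, HNF4A at 48 and RAD21 at 31.

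**Figure D2:**
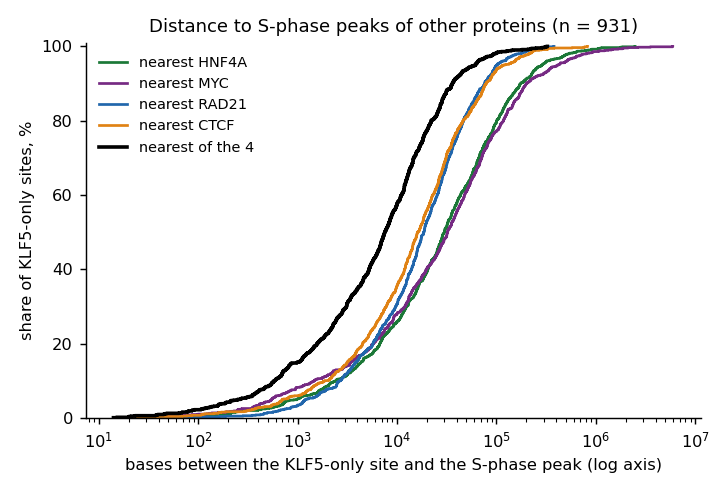
Cumulative share of the 931 KLF5-only sites (%) by the number of bases to the closest S-phase peak of HNF4A, MYC, RAD21 and CTCF (coloured lines) and of any of the 4 (black), on a log axis. The black line passes 38.7% within 5000 bp, and the RAD21 and CTCF lines lie left of the HNF4A and MYC lines over most of the range.

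The KLF5-only sites nearest to another peak were chr1:23683413-23684228 (hg18, here and below), 14 bp from a CTCF peak, chr2:55043773-55044485, 15 bp from a RAD21 peak, and chr11:695422-696185, 20 bp from a CTCF peak. The shared KLF5 peaks with the smallest overlap were chr3:87122644-87124048, which shared 15 bp with an HNF4A peak, chr16:48857642-48858745, which shared 22 bp with a MYC peak, and chr2:9858222-9859539, which shared 22 bp with a CTCF peak. The 3 KLF5-only sites had 15, 12 and 18 tags and widths of 816, 713 and 764 bp, and the 3 shared KLF5 peaks had 25, 18 and 21 tags and widths of 1405, 1104 and 1318 bp. These 3 KLF5-only sites were narrower than the 3 shared KLF5 peaks, but all were picked by the distance or overlap that the rule used. Their widths are a description and no support for a difference at the edge.

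KLF5-only sites lay about as far from the next KLF5 peak as shared KLF5 peaks did. The median distance was 55232 bp for KLF5-only sites and 48618 bp for shared KLF5 peaks, and 50 KLF5-only sites (5.37%) and 334 shared KLF5 peaks (6.68%) had another KLF5 peak within 1000 bp. Most KLF5-only sites were also apart from each other. Chaining sites at most 10000 bp apart gave 18 runs that held 37 of the 931 sites, and only 1 run, chr20:62032950-62051206, held 3.

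The sites were spread over all autosomes and the X chromosome. Chromosome 1 held 94, chromosome 19 held 82 and chromosome 17 held 60. The share of a chromosome's KLF5 peaks that stood alone was lowest on chromosome 12, at 40 of 394 (10.2%, 7.35 to 13.6%), and on chromosome 15, at 28 of 257 (10.9%, 7.36 to 15.4%). It was highest on the X chromosome, at 13 of 41 (31.7%, 18.1 to 48.1%), followed by chromosome 21, at 11 of 45 (24.4%, 12.9 to 39.5%), and chromosome 20, at 35 of 144 (24.3%, 17.6 to 32.1%). These chromosomes were picked for their place at the ends of the order, and LoVo cells do not carry every chromosome in the same number of copies.

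A KLF5 peak was found again in M phase at few of the KLF5-only sites. An S-phase peak was called kept where an M-phase peak of the same protein shared at least 1 base with it, which was so for 11.4% of all S-phase KLF5 peaks. KLF5 was kept at 49 of 931 KLF5-only sites (5.26%, 3.92 to 6.90%) and at 627 of 4997 shared KLF5 peaks (12.5%, 11.6 to 13.5%). The difference was -7.28 percentage points (95% interval -8.86 to -5.43). Widening the search to 1000 bp on either side of the site brought 3 more, to 52 (5.59%).

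The kept share followed the S-phase strength of the site. In 3 equal classes of the KLF5-only sites by score, KLF5 was kept at 3 of 310 of the weakest (0.968%, 0.200 to 2.80%), at 13 of 310 in the middle (4.19%, 2.25 to 7.06%) and at 33 of 311 of the strongest (10.6%, 7.42 to 14.6%). Of the 27 KLF5-only sites in the strongest of the 10 classes of all KLF5 peaks, 10 were kept (37.0%, 19.4 to 57.6%), beside 247 of 566 shared KLF5 peaks (43.6%, 39.5 to 47.8%). In the weakest of the 10 classes, 2 of 178 KLF5-only sites (1.12%, 0.136 to 3.9997%) and 20 of 415 shared KLF5 peaks (4.82%, 2.97 to 7.35%) were kept. The intervals of KLF5-only sites and shared KLF5 peaks overlapped in the strongest and in the weakest class. Such overlap does not show equal shares, and no interval for the difference within a class is given.

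Compared within 10 equal groups of score, the gap between both kinds of peak was smaller. The difference, averaged over the groups with weight on the smaller class, was -2.03 points (95% interval -3.57 to -0.484). With the tag count in place of the score it was -1.55 points (-3.06 to -0.0328), and with the width -2.86 points (-4.47 to -1.26), but with the fold enrichment -5.18 points (-6.82 to -3.55). When at least 50% of each peak had to be shared, it was -0.785 points (-2.05 to 0.478), and with summits within 100 bp -0.525 points (-1.68 to 0.628), so that at equal score an interval clear of 0 was seen with 1 shared base and not under these stricter rules.

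The number of S-phase partners was then set beside the kept share, a comparison chosen after the values were seen. KLF5 was kept at 5.26% of KLF5-only sites, at 10.3% of KLF5 peaks with 1 partner, at 13.7% with 2, at 13.4% with 3 and at 14.2% with all 4. The median S-phase score was 63.28, 73.79, 86.66, 93.32 and 109.46 in the same order, so that strength and number of partners moved together, and their parts in the kept share were not told apart here.

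Kept shares also differed with the kind of single partner, a comparison again chosen after the values were seen. KLF5 was kept at 83 of 539 peaks with HNF4A alone (15.4%, 12.5 to 18.7%), at 77 of 963 with MYC alone (8.00%, 6.36 to 9.89%), at 5 of 43 with RAD21 alone (11.6%, 3.89 to 25.1%) and at 7 of 120 with CTCF alone (5.83%, 2.38 to 11.6%). KLF5-only sites differed from peaks with HNF4A alone by -10.1 points (-13.7 to -6.90), and by -8.19 points (-11.7 to -4.70) within 5 groups of score. They differed from peaks with MYC alone by -2.73 points (-5.00 to -0.485), and by -0.0319 points (-2.18 to 2.12) within groups of score. Against peaks with CTCF alone the difference was -0.570 points (-6.43 to 2.82), and against those with RAD21 alone -6.36 points (-19.3 to 0.392), intervals that leave differences of either sign.

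**Figure D3:**
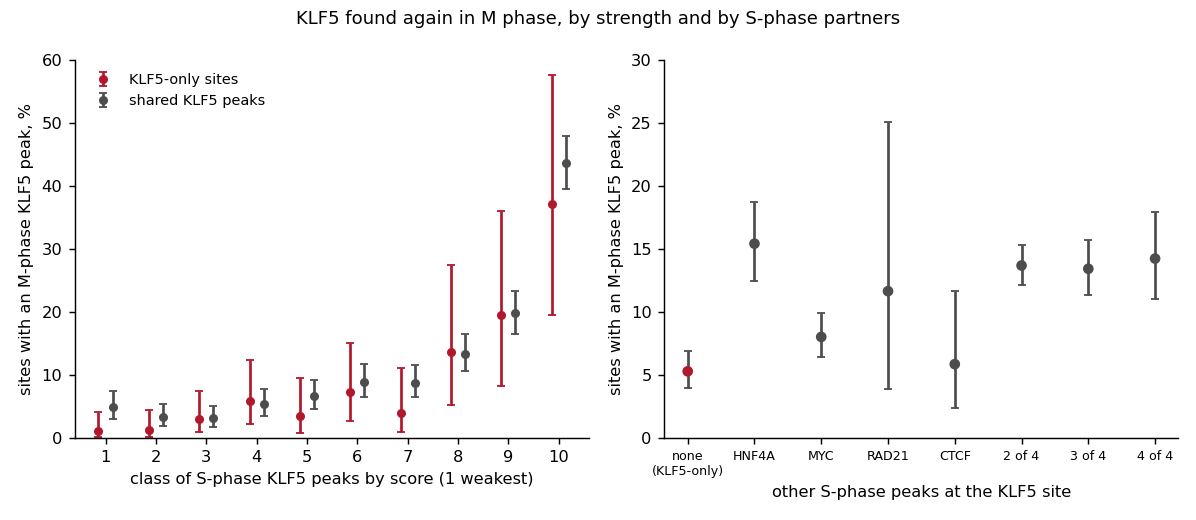
Share of S-phase KLF5 peaks with an M-phase KLF5 peak (%, with Clopper-Pearson 95% intervals). At left, KLF5-only sites (red) and shared KLF5 peaks (grey) in each of 10 equal classes of the list by score, where 37.0% of KLF5-only sites and 43.6% of shared KLF5 peaks were kept in the strongest class; at right, all KLF5 peaks by the S-phase peaks they overlapped, with 5.26% kept at KLF5-only sites and 15.4% with HNF4A alone.

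Kept shares differed less with the distance to other proteins. KLF5 was kept at 13 of 140 KLF5-only sites with another protein's S-phase peak under 1000 bp away (9.29%, 5.04 to 15.4%), at 11 of 220 with one from 1000 up to 5000 bp (5.00%, 2.52 to 8.77%), at 14 of 359 with one from 5000 up to 20000 bp (3.90%, 2.15 to 6.46%) and at 11 of 212 farther away (5.19%, 2.62 to 9.09%). All 4 intervals overlapped, which does not show equal shares. Over all sites at least 1000 bp away, KLF5 was kept at 36 of 791 (4.55%, 3.21 to 6.25%), and no interval for a difference is given. Median scores in these classes were 63.6, 64.6, 63.3 and 61.0, so that the classes were of similar strength.

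Kept sites named for high fold enrichment in S phase or M phase show what such a site looked like in both phases. Others so named, chr8:82171253-82172603 and chr10:25178035-25178777, are described below with their RAD21 peaks. The site at chr19:7800143-7801136 had 24 tags in M phase and 47 in S phase, with the highest fold enrichment of any KLF5-only site in either phase (27.79 in M phase and 37.52 in S phase). Its summits lay 64 bp apart, and the nearest other S-phase protein, CTCF, was 22064 bp away. At chr1:43245841-43247822 there were 20 tags in M phase and 59 in S phase, with an HNF4A peak 26225 bp away. The site with the highest S-phase score, chr17:37063068-37065993, had 22 tags in M phase and 149 in S phase, with summits 24 bp apart. At chr18:43941306-43943209 there were 12 tags in M phase and 42 in S phase. At chr5:153943005-153944519 there were 29 tags in M phase and 74 in S phase, and the M-phase fold enrichment of 22.93 was the second highest at these sites. All 5 held fewer tags in M phase than in S phase, in a library of 0.712 times the tags.

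Other sites of high S-phase strength had no peak in M phase. The site at chr17:39274690-39276528 had 74 tags and 24.39-fold enrichment in S phase and no M-phase peak of any of the 6 targets within 1000 bp. The same held at chr2:232950919-232951995, with 39 tags and 23.52-fold enrichment, and at chr5:5474891-5475888, with 51 tags and 22.95-fold enrichment. It held as well at chr1:183392351-183393815, with 44 tags and 19.64-fold enrichment, and at chr6:169981638-169983014, with 53 tags and 19.16-fold enrichment, which lay at an S-phase H3 peak. The S-phase tags of these 5 sites, 39 to 74, lay within the range of 14 to 149 at the kept sites. A missing peak says only that the site did not pass the cutoff in that library, and M-phase tags outside peaks were not used here.

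Kept KLF5-only peaks were smaller in M phase. At 48 of the 49 kept sites each phase had a single peak. The site at chr17:73647380-73650679, with 85 S-phase tags, had a pair of M-phase peaks of 16 and 14 tags. Over the 48, tags per 1000000 filtered tags had a median of 1.97 in M phase and 3.29 in S phase, and 3 of 48 sites had the higher value in M phase. Widths had a median of 825 bp in M phase and 1386.5 bp in S phase, no M-phase peak was the wider one, and 42 M-phase peaks lay wholly inside the S-phase peak.

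Summed over sites, tags and covered length were both lower in M phase. The 48 M-phase peaks summed to 105 tags per 1000000 (counting interval 98.1 to 113) over 40630 bp, and the 48 S-phase peaks to 194 tags per 1000000 (185 to 202) over 72536 bp. Per kb of peak, that is 2.59 tags per 1000000 in M phase and 2.67 in S phase. Peaks were called separately in each library, so the length that a peak covers depends on depth as well. The fragment length d used by MACS also differed, at 224 bp for M-phase KLF5 and 287 bp for S-phase KLF5. The parts of depth and of d in the widths were not tested. Shared KLF5 peaks that were kept were also smaller in M phase, and the sizes of change were not tested against each other: over 611 pairs, widths had a median of 866 bp in M phase and 1694 bp in S phase, and tags per 1000000 a median of 2.17 in M phase and 4.64 in S phase.

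The 3 sites with more tags per 1000000 in M phase were chr1:78474755-78476362, with 5.16 in M phase and 4.64 in S phase, chr2:227298469-227299727, with 2.04 in M phase and 1.93 in S phase, and chr10:25178035-25178777, with 1.49 in M phase and 1.35 in S phase. They rest on 38, 15 and 11 tags in M phase and 48, 20 and 14 tags in S phase. Summits in both phases lay close together, at a median of 81.5 bp (1 to 795 bp), and 26 of 48 were within 100 bp.

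**Figure D4:**
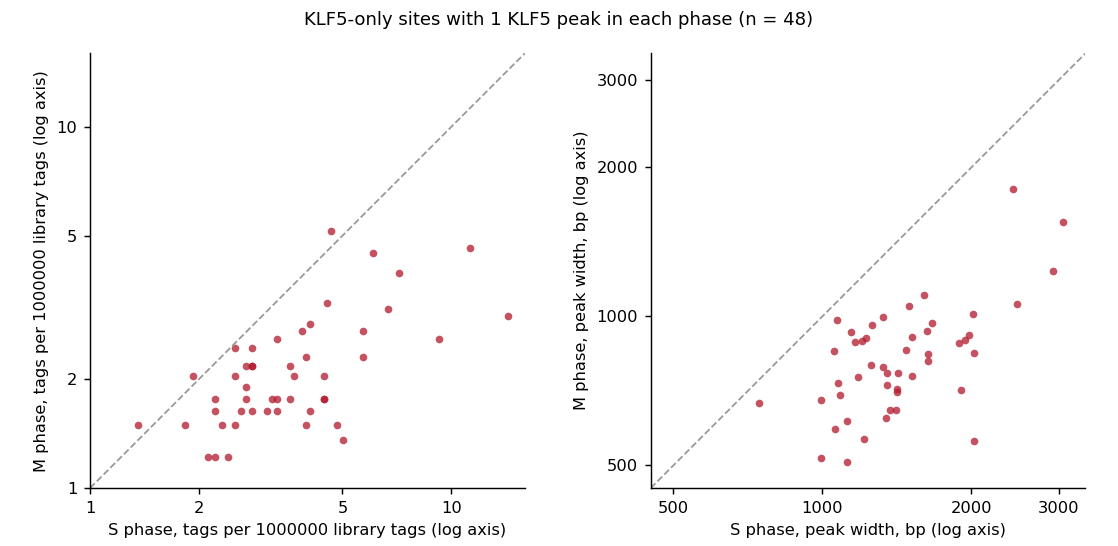
The 48 KLF5-only sites with a single KLF5 peak in each phase: M phase on the vertical axis and S phase on the horizontal axis, for tags per 1000000 library tags (left) and peak width in bp (right), on log axes. The dashed line marks equal values, and 3 points lie above it at left and none at right.

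In the M-phase KLF5 list, KLF5-only sites were a small part. Of its 2118 peaks, 50 lay at a KLF5-only site (2.36%, 1.76 to 3.10%), 635 at a shared KLF5 peak (30.0%) and 1433 at no S-phase KLF5 peak (67.7%). The M-phase score had a median of 66.8 at KLF5-only sites, 71.7 at shared KLF5 peaks and 55.6 at peaks with no S-phase counterpart. The false discovery rate (FDR) that MACS estimates by exchanging ChIP and control was under 5% for 16 of the 50, for 290 of the 635 and for 90 of the 1433. Only 16 of the 49 kept KLF5-only sites (1.72%, 0.985 to 2.78%, of 931) therefore had an M-phase KLF5 peak at that limit, while every S-phase KLF5 peak met it.

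Other proteins were seldom found at KLF5-only sites in M phase. The rule removed sites with S-phase peaks of these proteins, so a low share in the M-phase lists is partly fixed by the choice, and the comparison with shared KLF5 peaks is a description. An M-phase HNF4A peak lay at 3 KLF5-only sites (0.322%, 0.0665 to 0.939%) and at 479 shared KLF5 peaks (9.59%), beside 8.13% of all S-phase KLF5 peaks. An M-phase MYC peak lay at 9 KLF5-only sites (0.967%, 0.443 to 1.83%) and at 646 shared KLF5 peaks (12.9%), beside 11.0% of all. An M-phase RAD21 peak lay at 30 KLF5-only sites (3.22%, 2.18 to 4.57%) and at 1143 shared KLF5 peaks (22.9%), beside 19.8% of all. An M-phase CTCF peak lay at 23 KLF5-only sites (2.47%, 1.57 to 3.68%) and at 1343 shared KLF5 peaks (26.9%), beside 23.0% of all.

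Any of these 4 proteins had an M-phase peak at 61 KLF5-only sites (6.55%, 5.05 to 8.34%) and at 2423 shared KLF5 peaks (48.5%), beside 41.9% of all. Histone H3 had an M-phase peak at 0 of 931 KLF5-only sites, which allows a share of up to 0.322% by the limit of 3 counts (Clopper-Pearson upper bound 0.395%), and at 2 shared KLF5 peaks, beside 0.0337% of all. With all 6 targets together, 104 KLF5-only sites (11.2%, 9.22 to 13.4%) and 2666 shared KLF5 peaks (53.4%) had an M-phase peak, beside 46.7% of all. The remaining 827 KLF5-only sites (88.8%) had none, and at 784 (84.2%) none lay within 1000 bp.

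**Figure D5:**
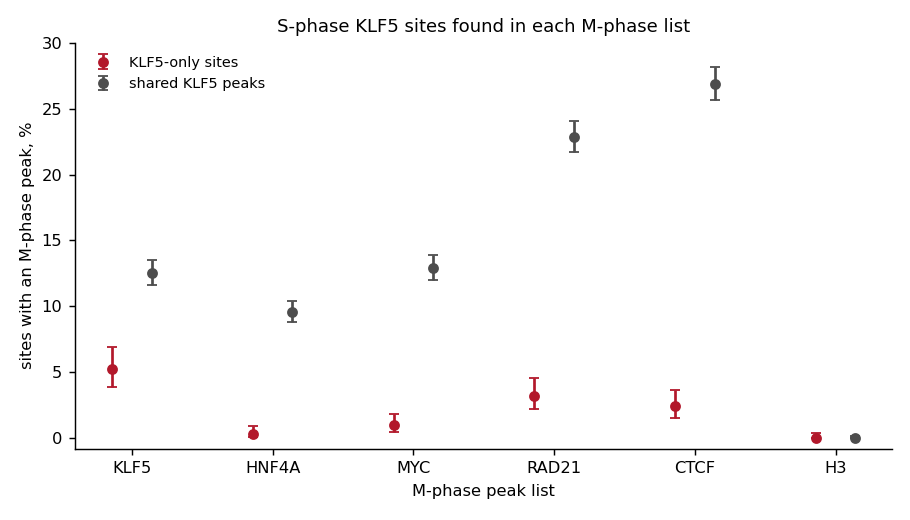
Share of S-phase KLF5 sites with an M-phase peak of each target (%, with Clopper-Pearson 95% intervals over peaks), for the 931 KLF5-only sites (red) and the 4997 shared KLF5 peaks (grey). KLF5 itself has the highest share at KLF5-only sites (5.26%), while CTCF has the highest share at shared KLF5 peaks (26.9%).

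Within the sites that had no M-phase peak of another protein, KLF5 was kept less often at KLF5-only sites than at shared KLF5 peaks. Among sites without an M-phase peak of HNF4A, MYC, RAD21 or CTCF, KLF5 was kept at 43 of 870 KLF5-only sites (4.94%, 3.60 to 6.60%) and at 243 of 2574 shared KLF5 peaks (9.44%, 8.34 to 10.6%), a difference of -4.50 points (-6.23 to -2.53) that was not standardised for strength. Among sites with such a peak, KLF5 was kept at 6 of 61 KLF5-only sites (9.84%, 3.70 to 20.2%) and at 384 of 2423 shared KLF5 peaks (15.8%, 14.4 to 17.4%), a difference of -6.01 points (-11.5 to 4.09). Another protein without KLF5 was found at 55 KLF5-only sites (5.91%) and at 2039 shared KLF5 peaks (40.8%). This split was made after the values were seen, and the rule itself keeps the number of KLF5-only sites with another protein low.

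Of the 104 KLF5-only sites with any M-phase peak, 94 had 1 target and 10 had 2, and no site had 3. The single targets were KLF5 at 43, RAD21 at 23, CTCF at 21, MYC at 4 and HNF4A at 3. The pairs were KLF5 with RAD21 at 4 sites, KLF5 with MYC at 2, MYC with RAD21 at 2, MYC with CTCF at 1 and RAD21 with CTCF at 1. RAD21 and CTCF met at 1 of the 52 KLF5-only sites that had either (1.92%, 0.0487 to 10.3%) and at 688 of 1798 shared KLF5 peaks (38.3%, 36.0 to 40.6%), where the rule had removed all S-phase RAD21 and CTCF sites from the KLF5-only set.

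Summits at the named paired sites lay at unlike distances from that of S-phase KLF5. At chr1:91851356-91852702 the M-phase peaks of KLF5, with 11 tags, and of MYC, with 16 tags, had summits 12 and 2 bp from the S-phase KLF5 summit, where KLF5 had 24 tags. At chr3:125692126-125693642 the M-phase KLF5 summit, with 13 tags, lay 151 bp and the M-phase MYC summit, with 21 tags, 167 bp from that of S-phase KLF5, with 28 tags. At chr8:82171253-82172603 M-phase KLF5 had 15 tags, S-phase KLF5 had 38 and M-phase RAD21 had 29, its summit 213 bp away. At chr10:25178035-25178777 M-phase KLF5 had 11 tags, S-phase KLF5 had 14 and M-phase RAD21 had 23, its summit 121 bp away. At chr7:127836063-127838468, where S-phase KLF5 had 53 tags, M-phase MYC with 18 and CTCF with 14 tags were found and KLF5 was not. The M-phase peaks at these sites all had an FDR above 5%. It was 100% for MYC, 11.22 to 25.81% for KLF5, 9 to 11.38% for RAD21 and 10.89% for CTCF.

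By median score, the M-phase RAD21 and CTCF peaks at KLF5-only sites were weak for their lists, while only 9 MYC and 3 HNF4A peaks could be compared. The 30 RAD21 peaks had a median score of 61.4, against 129 over the whole M-phase RAD21 list, and 2 of the 30 overlapped an S-phase RAD21 peak, against 82.0% over that list. The 23 CTCF peaks had a median score of 63.1, against 120 over the whole M-phase CTCF list, and 0 of 23, which allows a share of up to 13.0%, overlapped an S-phase CTCF peak, against 82.8%. The 9 MYC peaks had a median score of 67.0, against 67.3 over the whole M-phase MYC list, and 1 of 9 overlapped an S-phase MYC peak, against 76.3%. The 3 HNF4A peaks had a median score of 59.9, against 71.5 over the whole M-phase HNF4A list, and 0 of 3 overlapped an S-phase HNF4A peak, against 79.9%, a number too small to set a limit.

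The low numbers at S-phase peaks of the same protein follow in part from the rule, which had removed sites with such a peak. An FDR under 5% was met by 4 of the 30 RAD21 peaks (14307 of 22966 over the whole list), by 2 of the 23 CTCF peaks (8917 of 24391) and by 0 of the 9 MYC peaks (86 of 1974). No peak of the whole M-phase HNF4A list met it, so that this limit tests nothing for HNF4A. The strongest RAD21 and CTCF peaks, named here after their values were seen, had summits away from that of KLF5. The RAD21 peak of 72 tags and a score of 296.9 at chr15:53513587-53514213 had its summit 993 bp from the KLF5 summit, and an S-phase CTCF peak began 69 bp from this site. The CTCF peak of 38 tags and a score of 202.14 at chr12:129921564-129922296 had its summit 423 bp from the KLF5 summit.

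Histone H3 peaks in S phase, which the rule did not use, were more frequent at KLF5-only sites than at shared KLF5 peaks. H3 is a core histone that packages DNA along the whole genome, and its immunoprecipitation serves as a control in such a study. An S-phase H3 peak lay at 27 KLF5-only sites (2.90%, 1.92 to 4.19%) and at 36 shared KLF5 peaks (0.720%, 0.505 to 0.996%), a difference of 2.18 points (1.24 to 3.48), beside 1.06% of all S-phase KLF5 peaks. The 27 sites lay on 14 chromosomes with at most 4 on 1 of them, chromosome 9. None of the 27 had an M-phase peak of any target, which allows a share of up to 11.1%. Without peaks at H3, KLF5 was kept at 5.42% of KLF5-only sites and at 12.5% of shared KLF5 peaks.

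The HNF4A-only and MYC-only sites, chosen from their own S-phase lists as peaks sharing no base with the other 4 proteins, are the sets most like these. KLF5 had the smallest share of lone sites, with 15.7% of its list, against 53.3% of the HNF4A list and 28.9% of the MYC list. Each protein was kept at 49 of 931 KLF5-only sites (5.26%), at 932 of 8221 HNF4A-only sites (11.3%, 10.7 to 12.0%) and at 379 of 3453 MYC-only sites (11.0%, 9.95 to 12.1%). KLF5-only sites differed from HNF4A-only sites by -6.07 points (-7.52 to -4.32) and from MYC-only sites by -5.71 points (-7.38 to -3.80). Over whole S-phase lists, 11.4% of KLF5, 12.3% of HNF4A and 12.6% of MYC peaks were kept. The lengths of the lists limit all these shares unequally. The M-phase and S-phase lists held 2118 and 5928 peaks for KLF5, 2413 and 15437 for HNF4A, and 1974 and 11941 for MYC. Of the M-phase peaks, 79.9% of HNF4A and 76.3% of MYC lay at an S-phase peak of the same protein. Of the M-phase KLF5 peaks, 67.7% lay at no S-phase KLF5 peak.

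The sets differed in strength and depth too. The median S-phase score was 63.28 at KLF5-only sites, 90.6 at HNF4A-only sites and 89.45 at MYC-only sites, and the M-phase library held 0.712 times the tags of the S-phase library for KLF5, 1.38 times for HNF4A and 1.65 times for MYC. The part of depth in these differences was not tested. FDRs differed too. An FDR under 5% was met by 396 of 2118 M-phase KLF5, 0 of 2413 HNF4A and 86 of 1974 MYC peaks. At that limit no HNF4A-only site could be kept, while 1.72% of KLF5-only sites were. The order against HNF4A-only sites thus depends on the limit, and MYC-only sites were not counted at it. Among the 500 strongest sites of each set, 8.4% of KLF5-only, 65.0% of HNF4A-only and 44.6% of MYC-only sites were kept. These are sites of unlike strength, since 500 is 53.7% of the KLF5-only, 6.08% of the HNF4A-only and 14.5% of the MYC-only sites, with lowest scores of 61.85, 340.92 and 217.66 in the same order. Each M-phase list was also cut to its 1000 strongest peaks. The shares were then 3.87% (2.72 to 5.31%) for KLF5-only, 5.27% (4.79 to 5.77%) for HNF4A-only and 6.72% (5.91 to 7.61%) for MYC-only sites. This cut did not make the sets even. A list of 1000 peaks is longer than the KLF5-only set of 931 sites. It is shorter than the sets of 8221 HNF4A-only and 3453 MYC-only sites, which limits the shares that they can reach.

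Against the shared peaks of its own list at equal score, KLF5-only went the other way from the sets of HNF4A and MYC. The difference within 10 groups of score was -2.03 points (-3.57 to -0.484) for KLF5-only minus shared KLF5 peaks, 2.28 points (1.43 to 3.13) for HNF4A-only minus shared HNF4A peaks and 1.98 points (0.958 to 2.99) for MYC-only minus shared MYC peaks. The KLF5 difference minus the HNF4A difference was -4.31 points (-6.07 to -2.54), and minus the MYC difference -4.002 points (-5.85 to -2.15). These intervals treat peaks as independent, and this comparison was chosen after the values were seen. Without standardising, all 3 sets were kept less often than the shared peaks of their lists, with differences of -7.28 points for KLF5, -2.09 for HNF4A and -2.23 for MYC. With 50% of each peak shared, the standardised differences were -0.785 points (-2.05 to 0.478) for KLF5, 2.57 points (1.86 to 3.28) for HNF4A and 2.41 points (1.45 to 3.36) for MYC.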

How the data were processed

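ChIP-seq peak lists of 6 targets in M-phase and S-phase LoVo cells were used, 1 library per target and phase; the IgG libraries entered as MACS controls. Per the submitters' processing notes, CASAVA 1.4, BWA, MACS 1.4 and the build hg18 were used, and the file headers give MACS 1.4.0rc2 with a p-value cutoff of 1e-05. Rabbit IgG was the control of 5 targets and goat IgG that of CTCF, per the file headers, and filtered tags ranged from 7362169 to 16813394 in the ChIP libraries and from 3658103 to 10753369 in the controls. Tag counts in a peak were deposited unnormalized, as whole numbers. The authors' score for a peak is the MACS p-value as -10 times its log10. The deposited fold enrichment is a ratio over the local background in the control. FDR was deposited in percent, and all listed peaks were used whatever its value. The deposited positions are in hg18; no hg18 genome or annotation was used, so no sequence is printed and no gene is assigned.

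Overlaps of at least 1 bp, distances and shares were computed with scipy 1.17.1, pandas 2.3.3 and numpy 2.4.6 under Python 3.11.15, plots with matplotlib 3.10.9, and the methods were tested on simulated data. Shares have exact Clopper-Pearson 95% intervals, unstandardised differences Newcombe intervals, and standardised differences normal intervals from binomial variances within groups of score. Summed tags have exact Poisson intervals. The number of peaks and the tags behind each, at least 9 at kept sites, limit precision. Tags per 1000000 divide by the filtered tags in the headers. The limit given for a count of 0 is the share that 3 counts would be.

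Named sites were the 5 KLF5-only sites of highest S-phase fold enrichment with an M-phase KLF5 peak, the 5 with no M-phase peak of any target within 1000 bp, the 5 on the most M-phase lists, the 3 with the highest M-phase KLF5 fold enrichment, and the 3 on each side of the edge of the rule; others are said to be chosen later. Members and rules were chosen with earlier results of these data known. Alternatives changed the rule of overlap, the membership rule, score and FDR limits, list length and measure of strength.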

Additional observations from a re-analysis of the deposited data

How the results depend on the processing

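No paired analysis was possible because each target had 1 library per phase. Of 94 alternatives, 43 left a value within its interval or a count within 1.5 times, 48 moved it, 3 brought a difference's interval across 0 and none reversed a sign. Members numbered 571 when placed at least 5000 bp from other peaks and 1884 when the other lists were limited to scores of at least 100. The kept share at KLF5-only sites, at shared KLF5 peaks and the difference were 3.33%, 6.64% and -3.31 points with 50% of each peak shared, 2.90%, 6.20% and -3.30 points with summits within 100 bp, 1.72%, 5.80% and -4.08 points with an M-phase FDR under 5% (also with that limit in both lists), and 2.26%, 6.84% and -4.59 points with the 500 strongest M-phase peaks. With scores of at least 100 in both lists, shared KLF5 peaks were kept at 6.25% and the difference was -1.84 points (-4.49 to 3.14). The standardised difference was -5.18 points by fold enrichment, -0.785 with 50% shared and -0.525 by summits. M-phase HNF4A was at 0% of KLF5-only sites with 50% shared, by summits and at scores of at least 100; 0% at an FDR under 5% was fixed beforehand, since no M-phase HNF4A peak meets it. Each 0% of the 931 sites allows up to 0.322%. MYC was at 0.430% by summits and 0% at the score and FDR limits. RAD21 was at 1.29% by summits and 0.430% at both limits. CTCF was at 1.29% with 50% shared, 0.644% by summits, 0.430% at the score limit and 0.215% at the FDR limit, and any of the 4 at 3.87%, 2.36%, 0.859% and 0.644%. The kept shares of KLF5-only, HNF4A-only and MYC-only sites were 8.4%, 65.0% and 44.6% for the 500 strongest sites, 3.87%, 5.27% and 6.72% with the 1000 strongest M-phase peaks, and 3.33%, 6.80% and 9.18% with 50% shared. The HNF4A-only standardised difference, with alternatives added after seeing the data, was 1.10 points in 5 groups and 4.64 by tags. Stricter rules call fewer overlaps by construction; other causes were not tested. With 7362169 tags behind M-phase KLF5, a missing peak is one not detected at this depth.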
